A study of Mus musculus with 6 samples.

Results

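The oligoadenylate synthetase (*Oas*) family was followed in leg muscle of mouse fetuses. The genes described are *Oas1a*, *Oas1b*, *Oas1c*, *Oas1f*, *Oas1g*, *Oas2*, *Oas3*, *Oasl1* and *Oasl2*, which are 9 of the 56262 genes in the count table. They were chosen by name and by their measured values in this same comparison, because 1 paralogue was lower in KO samples while the others were higher. Their KO and WT values are therefore given as a description: all 9 entered the fit across all genes, but no p-value is given for them and their calls support nothing. Total RNA was sequenced from 3 WT and 3 *SYISL* knockout (KO) fetuses at embryonic day 18.5, with no treatment named for either group. The KO line lacks *SYISL*, a long noncoding RNA transcribed from within the *Synpo2* gene and overlapping one of its introns. Fetuses of each genotype came from matings of parents that shared that genotype, so genotype and litter or line of the parents cannot be told apart. The sources name no strain for these animals, and nothing says that the samples of a group came from separate litters, so p-values measure the spread between these samples only.

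Oligoadenylate synthetases are sensors of double-stranded RNA. On binding it, the active enzymes make chains of adenosine joined by 2'-5' bonds (2-5A), a second messenger of the antiviral response. Many of these genes are interferon-stimulated: interferon receptors act through a transcription factor complex that holds IRF9 and binds a promoter element called the ISRE. The mouse has one *Oas2*, one *Oas3*, a group of *Oas1* copies that arose by duplication, and a pair of *Oas*-like genes whose proteins end in ubiquitin-like domains.

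The 6 samples held between 82054811 and 102233181 counts, and 22071 genes, all 9 members among them, passed the filter on low counts. The quasi-likelihood test of edgeR called 1835 of these genes higher and 1852 lower in KO samples, at a Benjamini-Hochberg adjusted p under 0.05 together with a fold change over 1.5. The counts per gene do not cover *SYISL* itself, so its deletion could not be checked, and *Synpo2* rose from 136 ± 4.21 to 214 ± 18.9 CPM (counts per 1000000 counts of the TMM-scaled library; mean ± SD, n = 3 each). All 8 skeletal muscle markers were detected, and their summed level was 17300 to 19460 CPM in WT and 37140 to 44880 CPM in KO samples. Of these markers, 6 had a positive log2 fold change of KO over WT, while *Myog* had -0.22 and *Myh3* had -0.04. The samples of the 2 genotypes also differed in other cell types. Summed over 15 keratinocyte markers, the level was 17970 to 26770 CPM in WT samples and 986 to 1098 CPM in KO samples. Over 5 erythroid markers it was 1421 to 1731 CPM in WT and 208 to 234 CPM in KO samples, and over 11 macrophage markers it was 337 to 358 CPM and 487 to 530 CPM. In such bulk samples, fewer cells of a type and less RNA per cell cannot be told apart.

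All 9 members lie on chromosome 5 (mm10, GENCODE M21 annotation). *Oasl2* (ENSMUSG00000029561.17, chr5:114896936-114912234, plus strand) and *Oasl1* (ENSMUSG00000041827.15, chr5:114923240-114937915, plus strand) stand side by side. The other 7 form 1 cluster that begins with *Oas2* (ENSMUSG00000032690.16, chr5:120730333-120749853, minus strand) and *Oas3* (ENSMUSG00000032661.9, chr5:120753098-120777661, minus strand). *Oas1c* (ENSMUSG00000001166.17, chr5:120800194-120812514, minus strand) and *Oas1b* (ENSMUSG00000029605.16, chr5:120812635-120824163, plus strand) are head to head, with 120 bases between their annotated starts. *Oas1f* (ENSMUSG00000053765.4, chr5:120847367-120857986, plus strand) follows. *Oas1g* (ENSMUSG00000066861.14, chr5:120876142-120887613, minus strand) and *Oas1a* (ENSMUSG00000052776.10, chr5:120896256-120907521, minus strand) close the group. The annotation lists *Oas1b* as a polymorphic pseudogene and the other members as protein coding. It also has 3 more *Oas1* genes, *Oas1d*, *Oas1e* and *Oas1h*. These had at most 1, 5 and 3 counts in any sample, and none of them passed the filter.

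The bases before the start sites of *Oas1f* and of 4 members that were higher in KO samples are shown, since *Oas1* copies of 1 cluster differed in opposite directions. These 4 are the members with matches to the ISRE-like letters described below, and they include *Oas3*. *Oasl1* and *Oasl2* had log2 fold changes of 2.77 and 3.10 but no match, and they are not shown. The lines shown therefore do not tie the letters to direction. Sequences were taken from RefSeq promoter windows on GRCm38.p6, which run from 250 bases before to 50 after a start and were found for 7 of 9 members. *Oas1b* and *Oas2* were not among them. Each line gives the 140 bases before the start, 5' to 3' on the gene's strand, with capitals for matches to ISRE-like letters, which are TTTC, any 2 bases and TTTC again, or their reverse complement.
*Oas1f* (chr5:120847227-120847366, plus strand): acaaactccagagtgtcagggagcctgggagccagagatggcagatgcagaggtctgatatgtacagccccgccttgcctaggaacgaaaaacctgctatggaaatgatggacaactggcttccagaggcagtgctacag
*Oas1a* (chr5:120907526-120907665, minus strand): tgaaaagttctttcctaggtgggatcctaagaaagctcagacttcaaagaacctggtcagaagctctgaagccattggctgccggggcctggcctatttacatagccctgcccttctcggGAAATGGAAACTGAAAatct
*Oas1g* (chr5:120887614-120887753, minus strand): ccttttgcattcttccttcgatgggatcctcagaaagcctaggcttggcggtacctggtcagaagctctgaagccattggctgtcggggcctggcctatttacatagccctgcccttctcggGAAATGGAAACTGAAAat
*Oas1c* (chr5:120812515-120812654, minus strand): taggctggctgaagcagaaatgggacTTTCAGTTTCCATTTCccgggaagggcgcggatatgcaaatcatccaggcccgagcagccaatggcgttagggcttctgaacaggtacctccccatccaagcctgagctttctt
*Oas3* (chr5:120777660-120777799, minus strand): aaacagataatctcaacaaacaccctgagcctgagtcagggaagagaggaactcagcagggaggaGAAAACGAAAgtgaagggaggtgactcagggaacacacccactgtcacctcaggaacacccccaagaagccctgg
Within the whole windows, matches began at -75 in *Oas3*, at -114 and -108 in *Oas1c*, at -18 and -12 in *Oas1g*, and at -20 and -14 in *Oas1a*, counted from the RefSeq start. Both matches of a pair overlap. The windows of *Oas1f*, *Oasl1* and *Oasl2* held none. These letters occurred in 1131 of all 32851 promoter windows of the same length (3.44%). The *Oas1c* window reaches across the start of *Oas1b*, and its matches end 6 and 12 bases before the annotated *Oas1b* start. The GAS-like letters TTCNNNGAA, found in 8.30% of all windows, occurred in the *Oas1a* window only, at -98. A match is a description of letters and not evidence of binding.

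*Oas1f* was the member that was lower in KO samples. Its WT samples had 994, 968 and 1127 counts, and its KO samples had 27, 28 and 36. As CPM these were 10.5, 11.7 and 10.7 against 0.288, 0.294 and 0.370, so every KO sample lay far below every WT sample. The WT mean of 10.96 ± 0.656 CPM was 34.6 times the KO mean of 0.317 ± 0.0458 CPM (SD, n = 3 each). The log2 fold change of KO over WT was -5.10 with a standard error (SE) of 0.11. Of the genes tested, 59 had a lower log2 fold change than *Oas1f*.

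The other *Oas1* genes were higher in KO samples. *Oas1a* encodes an active synthetase. WT samples had 0.813, 0.448 and 0.616 CPM of it, and KO samples 3.14, 3.05 and 2.75 CPM, with no overlap. The means were 0.626 ± 0.183 and 2.98 ± 0.207 CPM, a 4.76-fold difference, and its WT samples spread more widely than those of any other member, with a coefficient of variation (CV) of 29.2%. *Oas1g*, its close copy, had 0.190, 0.242 and 0.256 CPM in WT and 1.07, 1.04 and 1.14 CPM in KO samples. The log2 fold changes of this pair were nearly equal, at 2.24 (SE 0.18) for *Oas1a* and 2.23 (SE 0.17) for *Oas1g*. *Oas1b* is known as the flavivirus resistance gene of mice and carries an early stop codon in most laboratory strains. WT samples had 1.30, 1.29 and 1.52 CPM of it, KO samples 5.62, 5.12 and 5.09 CPM, a log2 fold change of 1.94 (SE 0.10). Counts per gene do not show which *Oas1b* allele the animals carried.

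*Oas1c* showed the smallest difference of the 9 members. It had 39, 41 and 59 counts in WT and 84, 76 and 84 counts in KO samples, or 0.412, 0.496 and 0.559 CPM against 0.896, 0.797 and 0.863 CPM. The groups did not overlap, and the KO mean was 1.74 times the WT mean (log2 fold change 0.80, SE 0.16). *Oas1c* shares its start region with *Oas1b*, whose KO mean was 3.85 times its WT mean. The SEs are those of each gene, and the difference between the neighbours was not tested.

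*Oas2* and *Oas3* encode larger synthetases built from repeated OAS units. *Oas2* had 2.47, 2.42 and 2.85 CPM in WT and 11.8, 10.7 and 11.0 CPM in KO samples, a log2 fold change of 2.11 (SE 0.08). *Oas3* had 29, 18 and 33 counts in WT and 164, 167 and 175 counts in KO samples. Its KO samples were close together, at 1.75, 1.75 and 1.80 CPM, against 0.306, 0.218 and 0.313 CPM in WT samples, and its log2 fold change was 2.64 (SE 0.16). Both genes were higher in every KO sample than in any WT sample.

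The *Oas*-like pair differed most among the members that were higher. *Oasl2*, which encodes an active synthetase in mice, had 377, 306 and 393 counts in WT and 3169, 3053 and 3098 counts in KO samples. The WT mean of 3.80 ± 0.156 CPM stood against a KO mean of 32.6 ± 1.08 CPM (SD, n = 3 each), an 8.56-fold difference with a log2 fold change of 3.10 (SE 0.06), and 32 genes tested had a higher one. *Oasl1*, whose protein lacks synthetase activity and is known to hold back translation of *Irf7* mRNA, had 36, 43 and 38 counts in WT and 299, 245 and 270 counts in KO samples. This was a 6.77-fold difference (log2 fold change 2.77, SE 0.16).

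Across the members, 8 of 9 were past the threshold on the higher side and 1 on the lower side, where 8.31% and 8.39% of all genes tested were. All KO values lay above all WT values for the same 8 members and below them for *Oas1f*, against 27.3% and 28.5% of all genes. Since the members were chosen on this contrast, nothing is read from these shares. The median log2 fold change of the members was 2.23, beside -0.004 over all genes tested.

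**Figure D1:**
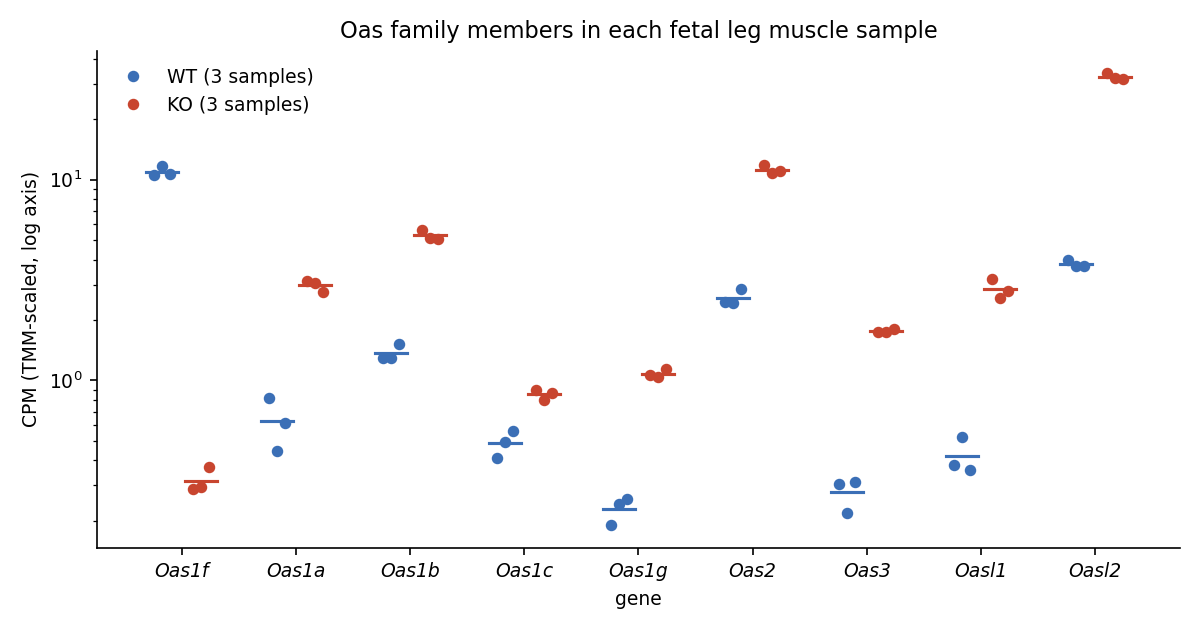
CPM of each member (log axis) in the 3 WT samples (blue) and 3 KO samples (red), with horizontal lines at the group means. *Oas1f* has a WT mean of 10.96 CPM against a KO mean of 0.317 CPM, and the KO samples of the other 8 members lie above their WT samples.

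The make-up of the family differed between the genotypes. To compare genes with each other, CPM was divided by the summed exon length in kilobases (FPKM). In WT samples *Oas1f* stood first, at 7.10, 7.91 and 7.21 FPKM, and its mean was 10.8 times that of *Oas1b*, the next member. *Oas1b* (0.688 ± 0.0634 FPKM), *Oasl2* (0.597 ± 0.0245 FPKM) and *Oas2* (0.580 ± 0.0529 FPKM) came next, and of these the ranges of *Oasl2* and *Oas2* overlapped. *Oas1a* (0.332), *Oas1c* (0.203), *Oasl1* (0.161), *Oas1g* (0.0980) and *Oas3* (0.0395 FPKM) followed in this order. Of these, *Oas1c* and *Oasl1* overlapped, and the other neighbours in the order did not.

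In KO samples *Oas1f* stood last, at 0.195, 0.199 and 0.250 FPKM. *Oasl2* led at 5.11 ± 0.170 FPKM, followed by *Oas1b* at 2.65 ± 0.150, *Oas2* at 2.51 ± 0.125, *Oas1a* at 1.58 ± 0.110 and *Oasl1* at 1.09 ± 0.121 FPKM. *Oas1g* (0.463), *Oas1c* (0.354) and *Oas3* (0.250 FPKM) came after these. *Oas1b* and *Oas2* overlapped, and so did *Oas3* and *Oas1f*. With the longest transcript as the length instead, *Oasl2* moved to 1.22 FPKM in WT and 10.4 FPKM in KO samples, which exchanged its place with *Oas1b* in WT samples, and *Oas1c* and *Oas3* exchanged places in KO samples. The WT mean of *Oas1f* was then 6.08 times that of *Oasl2*, the next member.

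Of the summed FPKM of the family, *Oas1f* made up 72.4%, 75.6% and 71.8% in WT samples, compared with 1.30%, 1.44% and 1.80% in KO samples. Among the 5 *Oas1* members alone, its share was 84.2%, 86.9% and 83.5% in WT samples, compared with 3.53%, 3.84% and 4.90% in KO samples. The family sum itself was 10.1 ± 0.338 FPKM in WT and 14.2 ± 0.619 FPKM in KO samples (SD, n = 3 each). These sums and shares used the union of exons and depend on that choice. With the longest transcript as length, *Oas1f* kept its values while *Oasl2* reached 10.4 FPKM in KO samples. The sums would then be larger and the *Oas1f* shares smaller. On the CPM scale, the members other than *Oas1f* together went from 9.80 ± 0.427 to 58.6 ± 2.36.

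**Figure D2:**
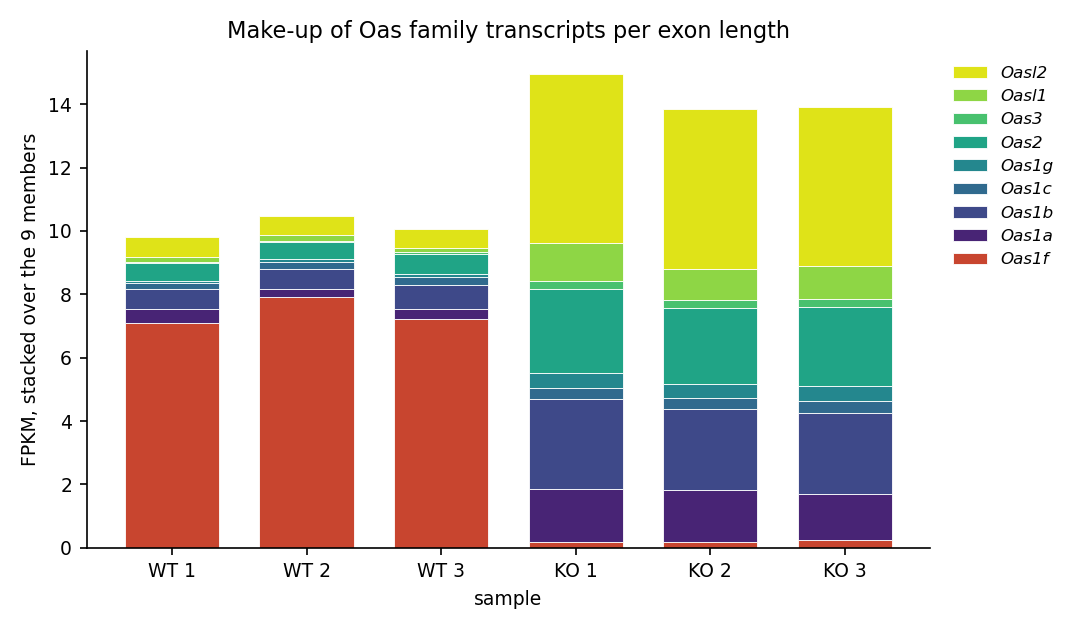
FPKM of the 9 members stacked for each of the 6 samples, with *Oas1f* in red at the base. *Oas1f* fills 71.8% to 75.6% of the bars of the WT samples and 1.30% to 1.80% of those of the KO samples, where *Oasl2* takes the largest part.

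The members resemble each other, so the share of sequence that could be counted for another gene was measured. Among the 10 pairs of *Oas1* members, identity of the coding sequences lay between 75% and 96.7%. *Oas1a* and *Oas1g* were the closest, at 96.7% over 1101 aligned bases. Of all windows of 75 bases in their transcripts, 47.6% of those of *Oas1a* and 36.9% of those of *Oas1g* stood exactly in the other gene. How the authors' counting treated reads that map to both is not stated, so the counts of this pair are uncertain as to which copy they came from. *Oas1f* was closest to *Oas1c*, at 85.8% identity, and shared 9 of its 1480 windows (0.608%) with it. *Oas1b*, *Oas2*, *Oas3*, *Oasl1* and *Oasl2* shared none. *Oas1c* shared 6.75% of its windows, most of them with *Gm43069*, an antisense gene that overlaps it. The strand setting of the counting is not stated, so reads from the stretch that these neighbours share cannot be told apart.

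The cluster was compared with the genes around it. Over all genes tested, edgeR called 8.31% higher and 8.39% lower. The 16 tested coding genes nearest to the cluster and the *Oasl* pair, 4 on each side, held none called higher and 1 called lower. These counts are near those shares. The lower gene was *Rasal1*, a Ras GTPase-activating protein gene (log2 fold change -1.25, SE 0.21, edgeR adjusted p = 0.00109). The median log2 fold change of these neighbours was -0.11, and the highest was 0.41, for *Acads*, below the fold threshold. *Dtx1*, the nearest of these neighbours to *Oas2*, had a log2 fold change of 0.27. *Rph3a*, the nearest of them to *Oas1a*, had -0.26.

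**Figure D3:**
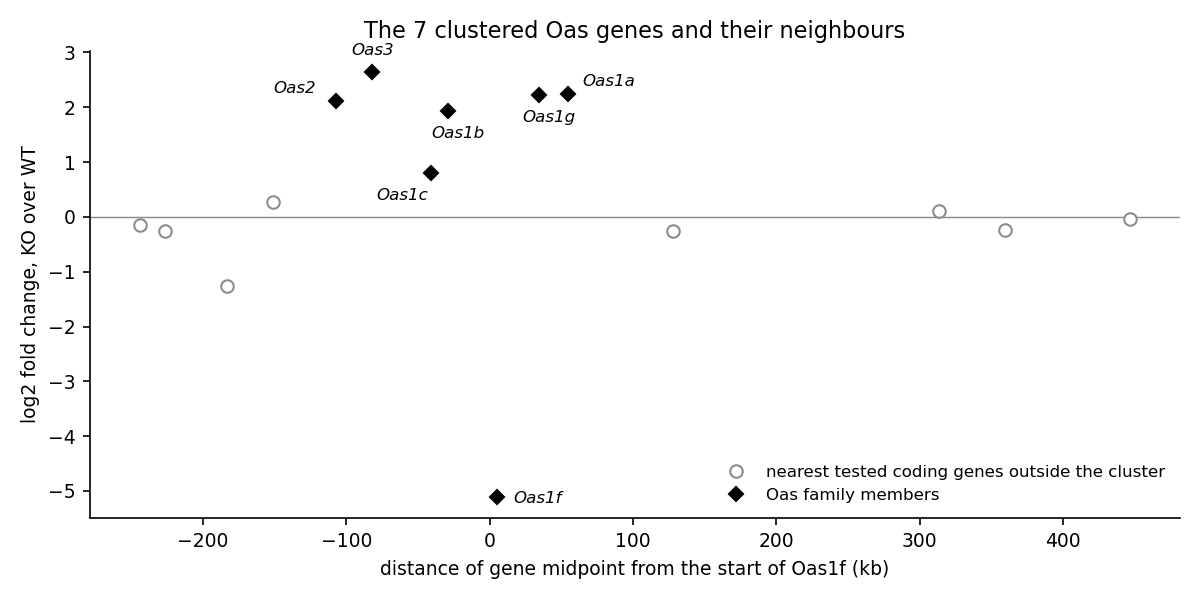
Log2 fold change of KO over WT (vertical axis) for the 7 clustered members (black diamonds) and the 8 nearest tested coding genes outside the cluster (open circles), by the distance of each gene's midpoint from the start of *Oas1f* in kilobases. *Oas1f*, at -5.10, lies between members at 0.80 to 2.64, and *Rasal1* is the only neighbour past the fold threshold.

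Of 3 other genes tied to 2-5A, edgeR called none higher and 1 lower, beside 8.31% and 8.39% of all genes tested. A list of 3 is too short to set against these shares. *Pde12*, whose product degrades 2-5A, fell by 0.68 on the log2 scale (SE 0.06, edgeR adjusted p = 2.39e-05), with 26.6, 30.2 and 25.9 CPM in WT and 17.1, 17.3 and 17.1 CPM in KO samples. The other 2, named here after their values were seen, were not called. *Abce1*, a ribosome recycling gene, had a log2 fold change of -0.36 (edgeR adjusted p = 9.9e-05). *Akap7*, whose product can also degrade 2-5A, had 0.44 (edgeR adjusted p = 1.06e-04). Both missed the call by the fold threshold alone.

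Other sensors of foreign nucleic acid, listed with adaptors and related genes, stood on the same side as most members. Of 14 such genes tested, 8 were called higher and none lower by edgeR, where 8.31% and 8.39% of all genes were. The median log2 fold change was 0.82, beside -0.004 over all genes. The largest was that of *Zbp1*, a sensor of Z-form nucleic acid, which rose from 0.505 ± 0.128 to 3.02 ± 0.190 CPM (log2 fold change 2.56, edgeR adjusted p = 2.05e-06). *Ddx60*, a helicase gene, followed at 2.40. *Dhx58* (1.40) and *Ifih1* (1.34) encode LGP2 and MDA5, which bind double-stranded RNA in the cytoplasm. *Eif2ak2*, which encodes PKR, the kinase that halts translation on binding double-stranded RNA, rose by 0.99 on the log2 scale.

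Interferon ligands were hardly counted. The 10 ligand genes of the list had at most 4 counts in any sample and were not tested, and 5 of them were at 0 in every sample, where a count of 0 allows up to 3 counts. This limit covers counting error only. Of the 6 receptor chains, none was called higher and 1 was called lower by edgeR, beside 8.31% and 8.39% of all genes tested. *Ifnlr1*, a chain of the interferon lambda receptor, fell by 1.20 on the log2 scale (SE 0.15, adjusted p = 1.80e-04), from 2.76 ± 0.531 to 1.20 ± 0.0952 CPM. *Ifnar1*, a chain of the type I interferon receptor, had 67.5 ± 1.34 and 70.0 ± 2.80 CPM (log2 fold change 0.05, adjusted p = 0.333).

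Among 14 genes of interferon signalling, 4 were called higher and none lower by edgeR, beside 8.31% and 8.39% of all genes tested. Their median log2 fold change was 0.33. *Usp18*, which encodes a protease that removes ISG15 and restrains the type I receptor, rose the most, by 2.81 on the log2 scale. *Irf7*, the factor that drives interferon alpha genes and the target of the *Oasl1* protein, had 2.80, 2.86 and 2.60 CPM in WT and 13.2, 12.1 and 12.7 CPM in KO samples (log2 fold change 2.21, SE 0.07, edgeR adjusted p = 5.82e-08). Genes of the complex that binds the ISRE had smaller rises, *Irf9* by 0.83 and *Stat2* by 0.61 on the log2 scale. *Stat2* had 0.56 without KO replicate 1 and 0.54 with total counts alone, under the fold threshold in both cases.

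Of 30 other interferon-stimulated genes, 29 were called higher and none lower by edgeR, beside 8.31% and 8.39% of all genes tested. Their median log2 fold change was 1.40. The largest were those of *Ifit1* (3.60), which encodes a protein that binds viral RNA ends, *Ifi44* (2.79), *Ifit3b* (2.76), *Isg15* (2.65), which encodes a ubiquitin-like modifier, and *Phf11d* (2.45). *Mx1*, an antiviral GTPase gene, was the one not called, and it is named after its value was seen. It had 1.78, 2.42 and 1.93 CPM in WT and 2.38, 2.2 and 2.21 CPM in KO samples, which overlapped (log2 fold change 0.15, adjusted p = 0.361). The lists were written with earlier results of these libraries known, so their counts are not independent evidence of a direction.

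**Figure D4:**
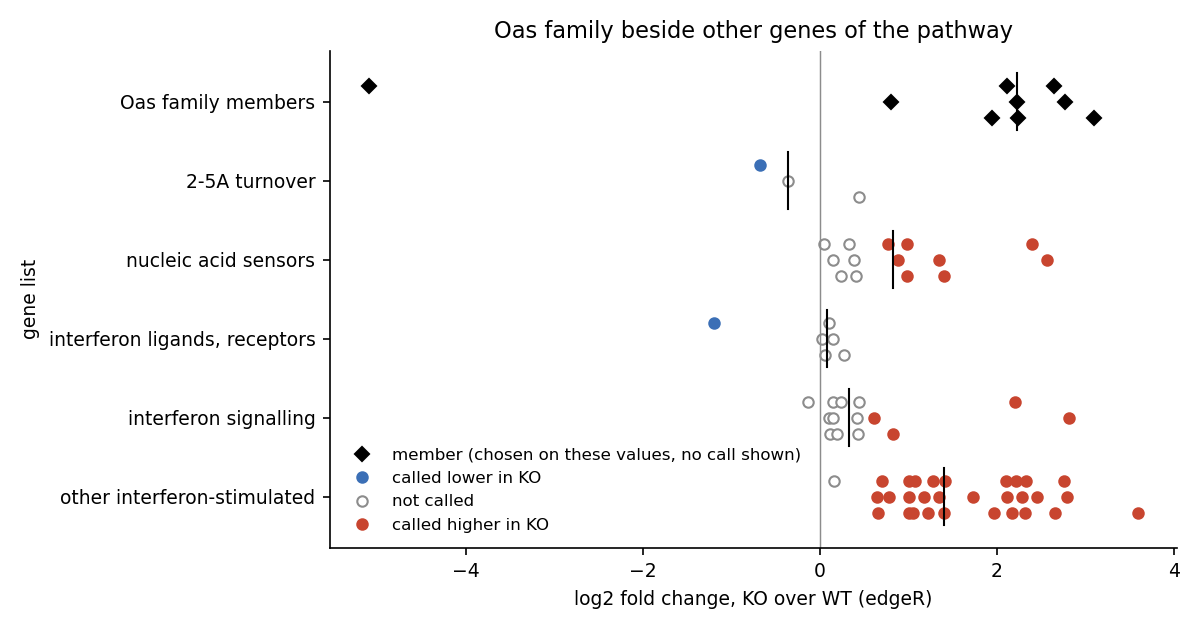
Log2 fold change of KO over WT for the 9 members (black diamonds, shown with no call because they were chosen on these values) and for the tested genes of 5 pathway lists, filled red where called higher, blue where called lower and open where not called. Short vertical lines are medians, at 2.23 for the members, 0.82 for the sensors with their adaptors and 1.40 for the other interferon-stimulated genes.

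Markers of other cell types differed between the genotypes alongside the members. Their calls are read beside the 8.31% higher and 8.39% lower among all genes tested. The 5 erythroid markers were all called lower in KO samples by edgeR, with log2 fold changes from -3.59 to -2.08. All 15 keratinocyte markers were called lower in KO samples by edgeR, with log2 fold changes from -10.24 (*Krt77*) to -1.35 (*Trp63*), and 4 of them had a lower value than the -5.10 of *Oas1f*. None of these markers was at 0, and their summed level was 17970, 26770 and 20010 CPM in the WT samples. Within the WT samples, *Oas1f* varied less than these markers other than *Krt14*. Like the summed markers, it was highest in WT 2 and lowest in WT 1. The level in WT 2 was 1.12 times that in WT 1 for *Oas1f* and 1.10 to 1.88 times for the markers, with a median of 1.34, and *Krt14* was the only marker with a smaller ratio. The WT CV of *Oas1f* was 5.98%, and those of the markers were 5.33% to 32.9%. Spreads of 3 samples are uncertain, so nothing about the source of *Oas1f* is read from them. The part of skin or of erythroid cells in the difference of *Oas1f* was not tested.

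Macrophage and skeletal muscle markers leaned to the side of the other members, and markers of other leukocytes went both ways. Over all genes tested, 8.31% were called higher and 8.39% lower. Of 11 macrophage markers, 6 were called higher and none lower by edgeR, with log2 fold changes between -0.27 and 0.99. Of 8 skeletal muscle markers, 6 were called higher and none lower, with log2 fold changes between -0.22 and 1.59. Markers of other leukocytes were low, at 17.7 to 26.0 CPM in sum in WT and 29.6 to 31.2 CPM in KO samples, with 2 of 8 tested called higher and 3 lower, and the lower count was 2 under 8 of 13 other fits. Neither the 8 endothelial nor the 6 fibroblast markers passed the fold threshold, although their summed levels were also higher in KO samples, at 738 to 770 against 845 to 886 CPM and at 28480 to 31460 against 34670 to 35800 CPM. The 8 members that were higher had log2 fold changes of 0.80 to 3.10, and the part of these cell types in them was not tested.

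**Figure D5:**
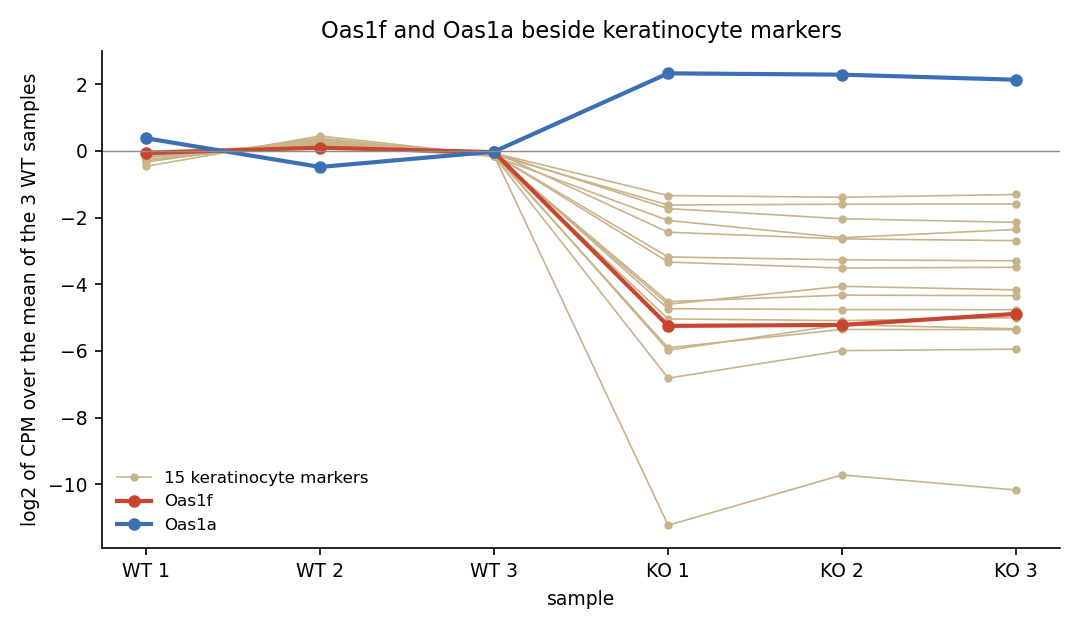
Log2 of CPM over the mean of the 3 WT samples for *Oas1f* (red), *Oas1a* (blue) and 15 keratinocyte markers (tan) in the 6 samples, with lines that join the values of 1 gene. *Oas1f* lies among the markers in the KO samples and near 0 in all WT samples, and *Oas1a* lies on the other side.

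The genes with the most similar profiles were found from the distance between log2 CPM values over the 6 samples, each gene centred on its own mean, among 15873 genes of at least 1 CPM. All samples enter, so the genotype difference counts toward this likeness. For *Oas1f* the nearest were *Gsta2*, a glutathione transferase gene (distance 0.332), *Tgm3*, a transglutaminase gene of the epidermis (0.368), and *Gm32089* (0.418). For *Oas2* they were *Xaf1* (0.176), *Sp100* (0.193) and *Ifi203* (0.216), all known interferon-stimulated genes. *Oas3* lay nearest to *Phf11d* (0.222), *Zbp1* (0.242) and *Xirp2* (0.285), and *Oasl1* to *Ifi44* (0.247), *Isg15* (0.397) and *Slfn4* (0.519). *Oas1g* lay nearest to *Apol6* (0.134), *Ifi203* (0.185) and *Oas2* (0.285), and *Oas1a* to *Thrsp* (0.353), *Ifi27l2a* (0.363) and *Ifit3* (0.370). For *Oas1b* they were *Adig* (0.132), *Mndal* (0.196) and *Oas2* (0.222), and for *Oasl2* *Scd1* (0.258), *Gm37759* (0.408) and *Mettl21c* (0.480). *Oas1c* lay nearest to *P2rx7* (0.164), *A330074K22Rik* (0.175) and *A830052D11Rik* (0.177). *Adig*, *Scd1* and *Thrsp* are known from fat cells and lipid synthesis, and *Xirp2* and *Mettl21c* from muscle.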

How the data were processed

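Leg muscle RNA-seq of 3 WT and 3 KO fetuses was used. Per the submitters' processing notes, the authors trimmed reads with Trim Galore 0.6.6, mapped them to mm10 with HISAT2 2.2.1 and counted them per gene with featureCounts 2.0.1. What they deposited is raw counts, with no normalization. The gene annotation, the strand setting and the treatment of reads shared by paralogues are not given in the sources used here, and close copies can exchange counts. The depth was 82054811 to 102233181 counts per sample.

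Of the gene IDs, 55227 were matched without their version to GENCODE M21 and 1035 were not. The 22071 genes that passed filterByExpr were tested with edgeR 4.0.16 in R 4.3.3 (TMM, quasi-likelihood F-test, genotype alone), adjusted by Benjamini-Hochberg over all of them. Calls needed a fold change over 1.5 as well as an adjusted p under 0.05. CPM used TMM-scaled totals, and FPKM the union of exons. The test was tested on simulated data first. Samples of a genotype differed by more than counting noise (mean chi-square per gene 5.17 to 35.5). Libraries of 1 fetus could also differ by this much, so the value does not show that samples are independent. They were counted as separate by their replicate labels.

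The members and all lists were chosen with earlier results of these data known. The rule named every member, the up to 5 largest called genes per pathway list and direction, *Irf7* and *Ifnar1*, the 4 tested coding genes beside each locus, and the 3 nearest profiles per member. The values of 2 genes of the pathway lists are not reported here, and the lists were counted without them. Alternatives were RLE, upper-quartile or no scaling factors, DESeq2 1.42.0, 2 other filters, a replicate block, leaving out each sample, the longest transcript as length and windows of 150 bases.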

Additional observations from a re-analysis of the deposited data

How the results depend on the processing

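Under 13 other fits, all 8 members that were higher and the 1 that was lower kept their direction and their side of the threshold, which is a description, since they were chosen on this contrast. The log2 fold change of *Oas1f* ran from -5.22 to -5.03, that of *Oas1c* from 0.68 to 0.91 and that of *Oasl2* from 3.03 to 3.17. With each sample left out in turn, calls over all genes were 1660 to 1953 higher and 1691 to 1924 lower, the signalling list had 3 to 4 higher, and the counts of members and of the other pathway lists stayed at their reported values. With library size only, the signalling list had 3 genes called higher, and the other interferon-stimulated genes had 27 higher. Upper-quartile factors gave 2188 higher and 1673 lower calls, and no scaling moved the median of all genes by over 0.1 on the log2 scale. Of the marker lists, macrophage markers had 5 to 6 higher (5 in 3 of the 13 fits) and markers of other leukocytes 2 to 3 higher and 2 to 3 lower (2 lower in 8 of the 13 fits), and the counts of the other marker lists did not change. With windows of 150 bases, which shared reads must span in full, the shared part was 32.4% in *Oas1a*, 24.1% in *Oas1g*, 2.2% in *Oas1c* and 0% in *Oas1f*. The longest transcript as length left *Oas1f* first in WT and last in KO samples.

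With the replicate block, 1744 genes were called higher and 1777 lower, and the counts of members and of the pathway lists were those reported. Samples that share a number across the genotypes deviated from their group means with correlations of -0.20, -0.13 and 0.05, so the numbers were not taken to pair the samples, and the sources do not say what they mark. With 3 samples a group, single-sample deviations such as those of *Oas1a* in WT samples cannot be judged, and *Oas1g*, *Oas3* and *Oasl1* rest on 18 to 43 counts in each WT sample. The KO values of *Oas1f* rest on 27 to 36 counts, and the WT values of *Oas1c* on 39 to 59 and of *Oas1a* on 37 to 77.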

Other observations

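*Oas1f* was one of 174 genes with a log2 fold change under -4 and a WT mean of at least 1 CPM. Their median WT CV was 23.7%, and 1 of them had a smaller WT CV than the 5.98% of *Oas1f*. Among the 174, 146 were highest in WT 2 and lowest in WT 1, *Oas1f* among them. The ratio of *Oas1a* to *Oas1g* counts was 4.28, 1.85 and 2.41 in WT samples and 2.94, 2.94 and 2.40 in KO samples. The KO values lie within the WT range. These values are descriptions of the same contrast that chose the members.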
